A study of Mus musculus with 2 samples.

Results

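The 10 Notch pathway genes described here comprised the receptors Notch1, Notch2 and Notch3 and the ligands Dll1, Dll3, Jag1 and Jag2. They also included the Hes genes Hes1, Hes5 and Hes6. Their m6A sites were all sites listed by GLORI inside the GENCODE M21 interval of each gene on its own strand, which came to 103 positions out of 219409 listed in the whole series. GLORI is a chemical assay in which glyoxal and nitrite turn adenosine into a base that is sequenced as G, whereas N6-methyladenosine resists and is still sequenced as A, so that single methylated bases can be called. The data were 2 GLORI libraries of poly(A)+ RNA, 1 from cerebellum and 1 from cerebrum, from a female P0 mouse of the cross F1r, which has a C57BL/6J (C57) mother and a PWK/PhJ (PWK) father. The study's methods name 1 mouse for both tissues, so the 2 libraries carry no spread between animals. Both libraries went through the deamination treatment, and there was no untreated library among them.

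In Notch signalling, a Delta or Jagged ligand on one cell binds a Notch receptor on its neighbour, and cuts by ADAM proteases and gamma-secretase free the intracellular domain of the receptor. This fragment enters the nucleus, joins the DNA-binding protein Rbpj and Mastermind coactivators, and switches on target genes such as Hes1 and Hes5. Hes1 and Hes5 encode bHLH repressors that hold back proneural genes and keep neural progenitors from differentiating, while Hes6 works against Hes1 and favours neurogenesis. The intracellular domain ends in a PEST region that marks it for degradation.

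The lists give positions and no methylation level or read count. To be listed, a position needed more than 8 reads and a methylation rate over 0.1, so an adenosine that is not listed can be unmethylated, weakly methylated or too thinly covered, and fewer expressing cells, less RNA per cell and lower methylation cannot be told apart. The cerebellum list held 79355 positions and the cerebrum list 188295, and the depth of both is unknown. The name of the cerebrum file carries an abbreviation that the study uses for the cerebellum, whereas the sample's labels all give cerebrum, and the labels were followed. Marker genes were therefore counted by their listed sites. Of 10 hindbrain and cerebellar genes, 5 had a site in the cerebellum (34 sites) and 3 in the cerebrum (8 sites), and Atoh1, Ptf1a and Skor2 had none in either. Of 13 forebrain genes, 4 had a site in the cerebellum (11 sites) and 13 in the cerebrum (295 sites). With 1 library per tissue no test was made. Shares carry 95% Wilson intervals, which cover counting error over sites alone and treat neighbouring sites of a transcript as independent.

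Sites were found in 9 of the 10 genes, and Dll3 was the exception. In the cerebellum 8 of the 10 genes had at least 1 site, where 41.2% of 21938 protein-coding genes did, and in the cerebrum 9 of the 10 had at least 1 site, where 57.4% did. A site at the same position in both libraries was present in 7 of the 10 genes, against 34.6% of coding genes. The cerebellum list held 22 sites of these genes and the cerebrum list 97, with 16 in common. Notch2 alone accounted for 47 of the 103 positions and Notch1 for 20, followed by Jag2 with 8, Dll1, Hes1 and Hes6 with 6 each, Notch3 and Hes5 with 4 each and Jag1 with 2. In the cerebrum, Notch2 had more sites than 93.7% of the coding genes that had any there, and Notch1 more than 78.6%, while Jag1 exceeded 15.0%. The median coding gene with a site had 4 in the cerebellum and 7 in the cerebrum.

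**Figure D1:**
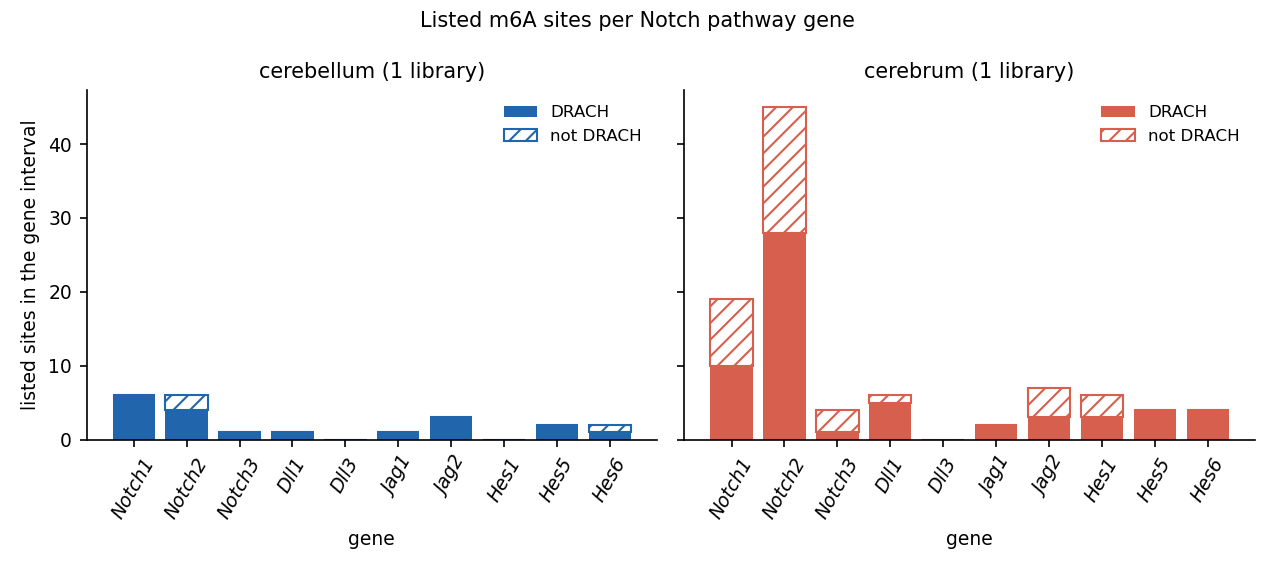
Number of listed m6A sites (y axis) in the interval of each of the 10 genes (x axis) in the cerebellum library (left) and the cerebrum library (right), split into DRACH sites (filled) and other sites (hatched). Notch2 reaches 45 sites in the cerebrum against 6 in the cerebellum, and Dll3 has none in either.

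DRACH is the motif of the METTL3 methyltransferase complex, which reads any base but C, then a purine, then the methylated A, then C, then any base but G. It was present at 19 of 22 sites in the cerebellum (86.4%, 66.7 to 95.3) and at 60 of 97 in the cerebrum (61.9%, 51.9 to 70.9), compared with 63.2% and 47.5% of the sites of all coding genes. Of the 16 positions found in both libraries, 14 were DRACH. The most frequent 5-mers over both lists were GAACT at 12 positions, TGACT at 11, GGACA at 8, and GGACT and AGACT at 6 each. GAACT was listed at 12 of its 46 occurrences on the 10 transcripts, GGACT at 6 of 59, GGACC at 3 of 94 and AGACC at 1 of 49. These counts have no value of all coding genes beside them and were not split by exon class. The part of placement in them was not tested.

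The receptors are described first. Notch1, on chromosome 2 (26457903 to 26516663, minus strand, GRCm38), has 34 exons and a transcript of 9488 nt, of which 3074 nt are the last exon. It held 6 sites in the cerebellum, all of them DRACH, and 19 in the cerebrum, 10 of them DRACH. The 5 sites found in both tissues were all DRACH and ranged from exon 25 into the 3′ UTR. The codon 1409 site lies in exon 25, which at 572 nt is the longest internal exon of Notch1, 3370 nt upstream of the end of the stop codon. Codons 2229 and 2471, of 2531 in all, lie in the last exon, and the other 2 shared sites lie 128 and 810 nt into the 3′ UTR. The shared site nearest the stop codon and the shared coding site farthest from it are shown with 10 nt on either side, read 5′ to 3′ on the transcribed strand of GRCm38, with the 5-mer in capitals and the methylated adenosine at its centre.

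Notch1 codon 1409 (chromosome 2, position 26468592, minus strand, both tissues): acatccgaGAACCctttctac
Notch1 3′ UTR, 128 nt past the stop codon (chromosome 2, position 26459403, minus strand, both tissues): aaataagaGGACAagaatttc

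A single Notch1 site was listed in the cerebellum alone, a GGACT 612 nt into the 3′ UTR. Sites listed in the cerebrum alone included codons 1489, 2191, 2378 and 2385, all DRACH, and the first base after the stop codon, an AAACA. In the cerebrum 7 of the 127 coding DRACH adenosines of Notch1 were listed, and 5 of these 7 lay in the last exon, which holds 17 of the 127. Another 3 cerebrum sites, none DRACH, lay in an annotated retained intron of Notch1.

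Notch2, on chromosome 3 (98013527 to 98150361, plus strand), has the longest transcript of the set at 10500 nt, with a last exon of 4309 nt that includes a 3′ UTR of 2917 nt. It held 6 sites in the cerebellum, 4 of them DRACH, and 45 in the cerebrum, 28 of them DRACH. Its 3′ UTR has 66 DRACH adenosines. The cerebellum list held 4 of them (6.06%, 2.38 to 14.6) and the cerebrum list 21 (31.8%, 21.8 to 43.8). The densest run of sites within 200 nt held 6 DRACH positions between 968 and 1157 nt past the stop codon, where the sequence has 7 DRACH adenosines, and 5 of the 6 were listed in the cerebrum and 1 in the cerebellum. It contains adenosines only 5 nt apart, at 1106 and 1111 nt, each listed in the cerebrum. The DRACH sites found in both tissues lay farther on, at 1872 and 1925 nt, and are shown beside that close pair.

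Notch2 3′ UTR, 1872 nt past the stop codon (chromosome 3, position 98149316, plus strand, both tissues): tgatcattTGACTttattctc
Notch2 3′ UTR, 1925 nt past the stop codon (chromosome 3, position 98149369, plus strand, both tissues): tggaatagAGACAttttattg
Notch2 3′ UTR, 1106 nt past the stop codon (chromosome 3, position 98148550, plus strand, cerebrum): gccatttaGGACAgaacttgc
Notch2 3′ UTR, 1111 nt past the stop codon (chromosome 3, position 98148555, plus strand, cerebrum): ttaggacaGAACTtgcctggg

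Notch2 also held the only non-DRACH positions of the 10 genes that were listed in both tissues. These were a CGACT 540 nt into the 3′ UTR, which differs from DRACH in its first base, and a GCAGT at codon 398 in exon 7, which differs in 2 bases. In its coding sequence 7 of 133 DRACH adenosines were listed in the cerebrum and 0 in the cerebellum. A further 4 cerebrum sites lay in introns 1 and 22, and the 2 in intron 1 overlap the unclassified transcript Gm42819 on the same strand. The exon 21 site at codon 1152 overlaps Gm42820 in the same way, so reads of these transcripts and of Notch2 cannot be told apart at these 3 positions.

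Notch3, on chromosome 17 (32120820 to 32166852, minus strand), has 33 exons and a transcript of 8016 nt with 124 DRACH adenosines. Of these, 1 was listed in the cerebellum and 1 in the cerebrum, and both lists gave the same position, codon 2265 of 2318 in the last exon. The cerebrum list added 3 sites outside DRACH, at codons 1586 and 1589 and at 298 nt into the 3′ UTR. None of the 14 DRACH adenosines in the 3′ UTR of Notch3 was listed in either tissue.

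The single DRACH site of Notch3 has a counterpart in Notch2. The proteins were aligned with MAFFT, in which Notch1 and Notch2 shared 56.9% of aligned residues, Notch1 and Notch3 54.9%, and Notch2 and Notch3 54.7%. Codon 2265 of Notch3, listed in both tissues, aligned with codon 2437 of Notch2, listed in the cerebrum, and both sites were the middle A of a GAC codon for aspartate. They lay 163 and 112 nt upstream of the end of the stop codon. The aligned codon of Notch1, number 2507, also encodes aspartate but is written GAT, so its adenosine stands in TGATT, which is not DRACH, and it was not listed.

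Notch3 codon 2265 (chromosome 17, position 32121983, minus strand, both tissues): tccctctcAGACTggtctgac
Notch2 codon 2437 (chromosome 3, position 98147332, plus strand, cerebrum): tctgcatcTGACTggtcagat
Notch1 codon 2507 (chromosome 2, position 26459607, minus strand, not listed): aacatctcTGATTggtccgag

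Aligned DRACH adenosines were not always listed together. The GGACT at codon 2191 of Notch1, listed in the cerebrum, aligned with a GGACT at codon 2104 of Notch3 that was listed in neither tissue and with a CGATT at codon 2153 of Notch2. The GGACC at codon 2044 of Notch2, listed in the cerebrum, aligned with the same 5-mer at codon 2084 of Notch1 and with a GGACA at codon 2006 of Notch3, neither of them listed. In all 3 genes that adenosine sits 100 nt from the start of the last exon. Transcript levels were not measured in these files, and their part in which paralog was listed was not tested.

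Notch1 codon 2191 (chromosome 2, position 26460555, minus strand, cerebrum): tcgcctgtGGACTccctcgag
Notch3 codon 2104 (chromosome 17, position 32122466, minus strand, not listed): tcaccggtGGACTctctggac
Notch2 codon 2044 (chromosome 3, position 98146153, plus strand, cerebrum): gaccacatGGACCgccttccc
Notch1 codon 2084 (chromosome 2, position 26460876, minus strand, not listed): gatcacatGGACCgattgccg

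**Figure D2:**
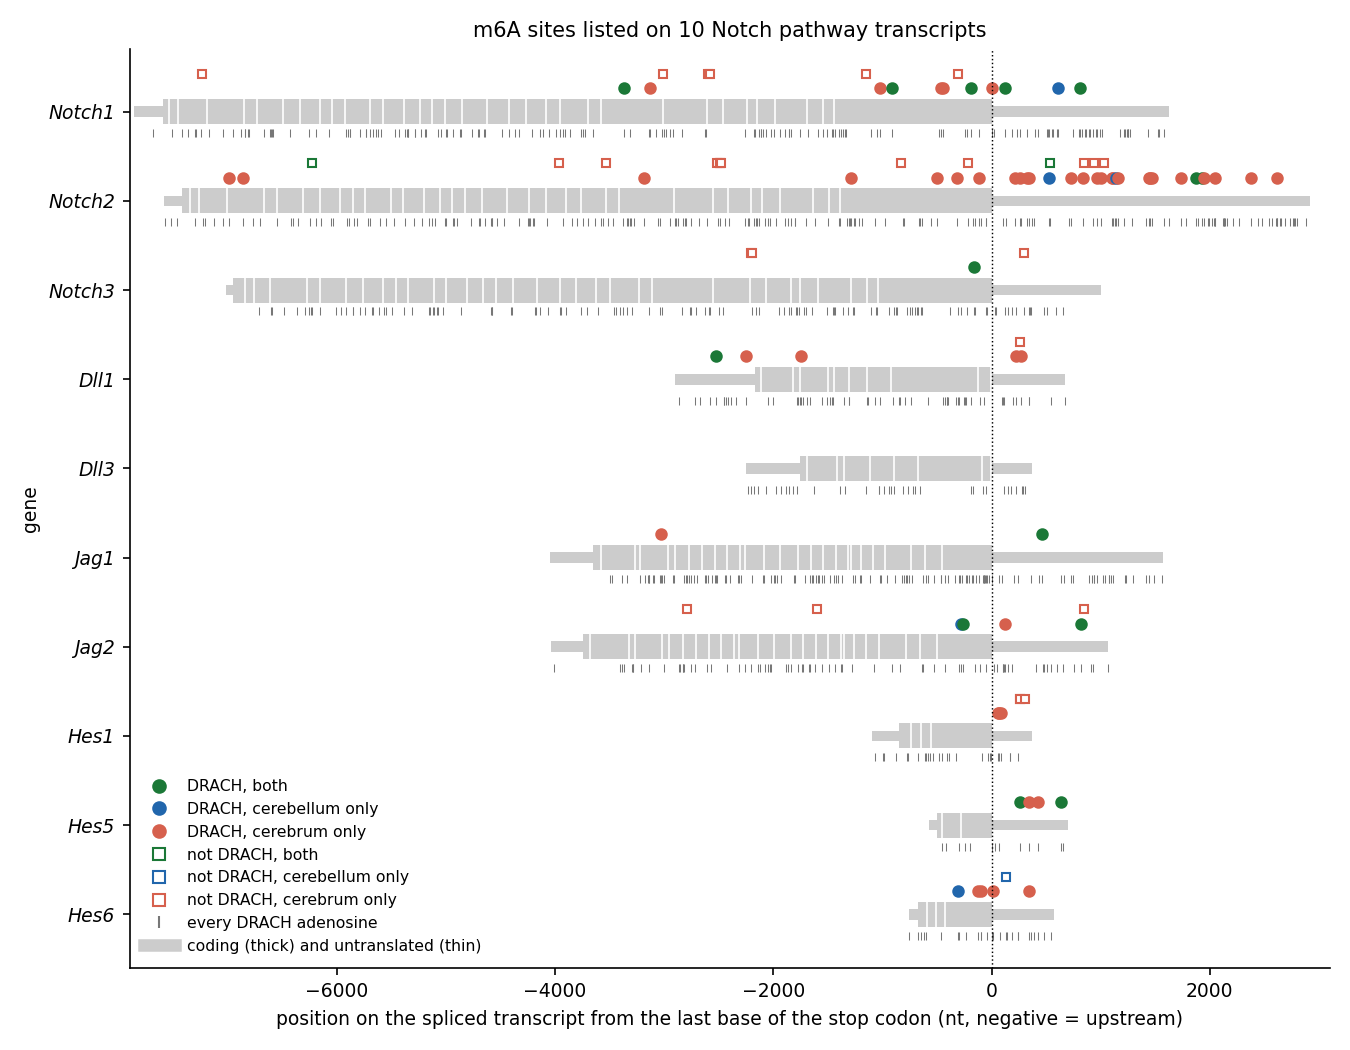
Spliced transcripts of the 10 genes drawn to scale from the last base of the stop codon (x axis, nt, upstream negative), with coding sequence thick, untranslated regions thin and exon junctions as white lines. Circles mark DRACH sites and squares other sites, coloured by the tissue that listed them, and grey ticks mark all 870 DRACH adenosines: most circles stand over last exons, and the many short exons of the receptors and ligands hold few.

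Among the ligands, Dll1, on chromosome 17 (15367354 to 15376872, minus strand), is a Delta ligand that activates Notch on the neighbouring cell. It was the only one of the 10 genes with sites in the 5′ UTR, at 2 of its 12 DRACH adenosines there. Both lay in the first exon, and a GAACA 406 nt before the end of that exon was the only Dll1 site listed in the cerebellum, where the cerebrum listed it as well. The cerebrum list added an AGACT in the 5′ UTR, an AGACT at codon 141 in exon 4, and 3 sites at 228, 260 and 267 nt into the 3′ UTR. The middle of these 3, a GGACG, departs from DRACH in its last base.

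Dll1 5′ UTR, exon 1 (chromosome 17, position 15375593, minus strand, both tissues): attaagctGAACAtctgggct
Dll1 5′ UTR, exon 1 (chromosome 17, position 15375318, minus strand, cerebrum): ggtcatatAGACTttcctggc

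Dll3, on chromosome 7 (28293553 to 28302238, minus strand), is a divergent Delta protein that inhibits Notch within the cell that makes it. Its transcript of 2618 nt carries 37 DRACH adenosines, 7 of them in the 3′ UTR, and none was listed in either tissue. Its expression in these tissues is not recorded in the files, so nothing on its methylation follows from the lack of sites.

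Jag1, on chromosome 2 (137081456 to 137116644, minus strand), had 132 DRACH adenosines, the third highest number of the set, of which 1 was listed in the cerebellum and 2 in the cerebrum. A TGACT 460 nt into its 3′ UTR of 1568 nt was listed in both tissues, and a GGACA at codon 208 in exon 4 in the cerebrum. Jag2, on chromosome 12 (112907819 to 112929776, minus strand), had 77 DRACH adenosines, of which 3 were listed in each tissue. The positions in common were an AAACT at codon 1162 in the last exon, 259 nt upstream of the end of the stop codon, and a GAACT 817 nt into the 3′ UTR. The cerebellum alone listed a GGACA at codon 1155, only 21 nt before the codon 1162 site, and the cerebrum alone an AAACA at 123 nt. Equal DRACH counts in both tissues were found for Jag2, with 3, and Notch3, with 1.

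Jag1 and Jag2 shared 54.7% of aligned residues. Codon 1162 of Jag2 aligned with codon 1143 of Jag1, which has the same residue and the same AAACT at a like distance from the stop codon, 229 nt in Jag1 and 259 nt in Jag2. The Jag2 adenosine was listed in both tissues, and the Jag1 adenosine in neither.

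Jag1 3′ UTR, 460 nt past the stop codon (chromosome 2, position 137082564, minus strand, both tissues): atcacaaaTGACTttattatt
Jag2 codon 1162 (chromosome 12, position 112909148, minus strand, both tissues): cagtgcaaAAACTtcacaccg
Jag1 codon 1143 (chromosome 2, position 137083253, minus strand, not listed): gagaacaaAAACTcgaaaatg

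The Hes genes have short transcripts with few exons. Hes1, on chromosome 16 (30064384 to 30067796, plus strand), had no site in the cerebellum and 6 in the cerebrum, all in its 3′ UTR of 368 nt. The 3 DRACH sites lay 57, 70 and 88 nt past the stop codon, within 32 nt, and were all the DRACH adenosines of that stretch. The 3 others, at 257, 259 and 309 nt, were in the 5-mers TTACA, then ACACG, then TAAAA. None of the 17 coding DRACH adenosines of Hes1 was listed.

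Hes1 3′ UTR, 57 nt past the stop codon (chromosome 16, position 30067485, plus strand, cerebrum): cttctgacGGACActaaaaac
Hes1 3′ UTR, 70 nt past the stop codon (chromosome 16, position 30067498, plus strand, cerebrum): ctaaaaacGAACTtggatttt
Hes1 3′ UTR, 88 nt past the stop codon (chromosome 16, position 30067516, plus strand, cerebrum): tttaggagAGACTtttataat

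Hes5, on chromosome 4 (154960923 to 154962371, plus strand), had the highest share of listed DRACH adenosines, 2 of 13 in the cerebellum and 4 of 13 in the cerebrum. All were in the 3′ UTR, at 262, 344, 428 and 633 nt, and made up 4 of its 7 DRACH adenosines there. The first and the last of these were listed in both tissues, and the pair between them in the cerebrum alone. Hes6, on chromosome 1 (91411483 to 91414038, minus strand), was the only gene with sites in both tissues and no position in common. The cerebellum listed a GAACT at codon 124 and a TGAAT 134 nt into the 3′ UTR. The cerebrum listed 4 DRACH sites, at codons 184 and 192 of 224 and at 17 and 339 nt into the 3′ UTR. Each of the Hes proteins ends in or close to the WRPW motif, which recruits Groucho-type corepressors. It starts at residue 277 in Hes1, 164 in Hes5 and 221 in Hes6. Hes1 and Hes5 had no listed coding site, and those of Hes6, at codons 124, 184 and 192, lay before the motif.

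Hes5 3′ UTR, 262 nt past the stop codon (chromosome 4, position 154961937, plus strand, both tissues): tcagcaagTGACTtctgcgaa
Hes5 3′ UTR, 633 nt past the stop codon (chromosome 4, position 154962308, plus strand, both tissues): tagaatttGAACTcttggtca
Hes6 3′ UTR, 17 nt past the stop codon (chromosome 1, position 91412041, minus strand, cerebrum): cttaccagGGACCtgtgaatg

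Since a long transcript has more adenosines that could be listed, the genes were set side by side by the share of their exonic DRACH adenosines that were listed. Over the 10 genes this was 19 of 870 in the cerebellum (2.18%, 1.40 to 3.39) and 60 of 870 in the cerebrum (6.90%, 5.40 to 8.78). Over all coding genes with a site on their transcript in that library it was 5.81% and 7.65%. Counting only the Notch pathway genes that had a site, it was 2.36% and 7.20%. Without Notch2 the cerebrum share of the set was 32 of 668 (4.79%, 3.41 to 6.68). The cerebrum order ran from Hes5 at 30.8% (12.7 to 57.6) and Hes6 at 14.8% (5.92 to 32.5) through Notch2 at 13.9% (9.77 to 19.3), Hes1 at 11.1% (3.85 to 28.1), Dll1 at 7.94% (3.44 to 17.3) and Notch1 at 5.95% (3.27 to 10.6) to Jag2 at 3.90%, Jag1 at 1.52% and Notch3 at 0.806%. Neighbours in this order had overlapping intervals. The interval of Notch2 lay above those of Notch3 (0.143 to 4.43), Jag1 (0.416 to 5.36) and Dll3, which had 0 of 37 listed (0 to 9.41). That of Hes6 lay above those of Notch3 and Jag1. That of Hes5 lay above those of Notch1, Jag2 (1.33 to 10.8), Jag1, Notch3 and Dll3. In the cerebellum the shares ran from 15.4% in Hes5 (4.33 to 42.2) to 0.758% in Jag1 (0.134 to 4.17) among genes with a DRACH site, and only these extremes had intervals that did not overlap. Among the receptors, Notch2 was above Notch1 in the cerebrum and below it in the cerebellum, with intervals that overlapped in both tissues.

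**Figure D3:**
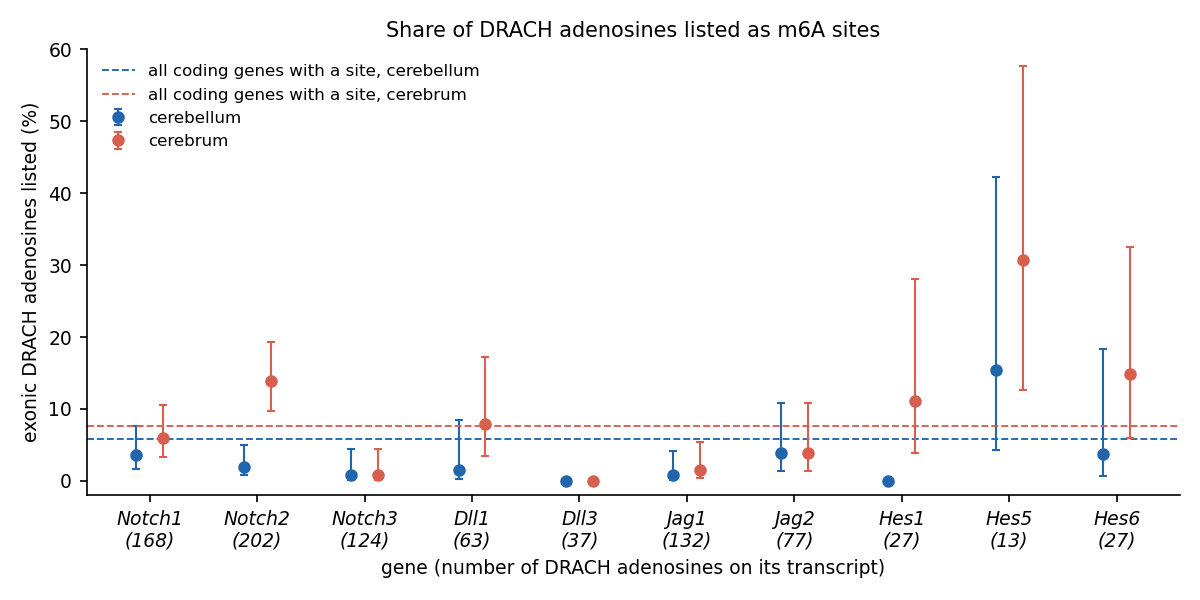
Percentage of the exonic DRACH adenosines of each gene that were listed as m6A sites (y axis) in the cerebellum (blue) and the cerebrum (red), with 95% Wilson intervals, which are left out where no adenosine was listed. Dashed lines give the share over all coding genes with a site (5.81% and 7.65%), and the cerebrum points run from 30.8% in Hes5 down to 0.806% in Notch3, with Dll3 at 0.

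The position of sites within transcripts was then set against the position of the DRACH adenosines themselves. The receptors and ligands have many short exons that encode EGF repeats, and 52.1% of the DRACH adenosines of the 10 transcripts fell in internal exons under 400 nt, compared with 31.5% over coding genes with a cerebrum site. The last exons held 37.2% of the DRACH adenosines but 17 of the 19 DRACH sites in the cerebellum (89.5%, 68.6 to 97.1) and 51 of the 60 in the cerebrum (85.0%, 73.9 to 91.9). Over all coding genes the last exon held 55.2% and 54.5% of the DRACH adenosines and 71.3% and 71.0% of the DRACH sites.

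By exon class, 17 of 324 last-exon DRACH adenosines of the 10 genes were listed in the cerebellum (5.25%, 3.30 to 8.24) and 51 of 324 in the cerebrum (15.7%, 12.2 to 20.1). In short internal exons it was 0 of 453 and 4 of 453 (0.883%, 0.344 to 2.25). All coding genes gave 7.52% and 9.97% for last exons and 0.599% and 1.03% for short internal exons. Without Notch2 the last-exon share in the cerebrum was 26 of 232 (11.2%, 7.76 to 15.9). Long internal exons, of 400 nt or more, had 1 of 53 listed in the cerebellum and 3 of 53 in the cerebrum (5.66%, 1.94 to 15.4), where all coding genes had 14.9% and 20.1%. All of these lay in exon 25 of Notch1 or Notch2.

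**Figure D4:**
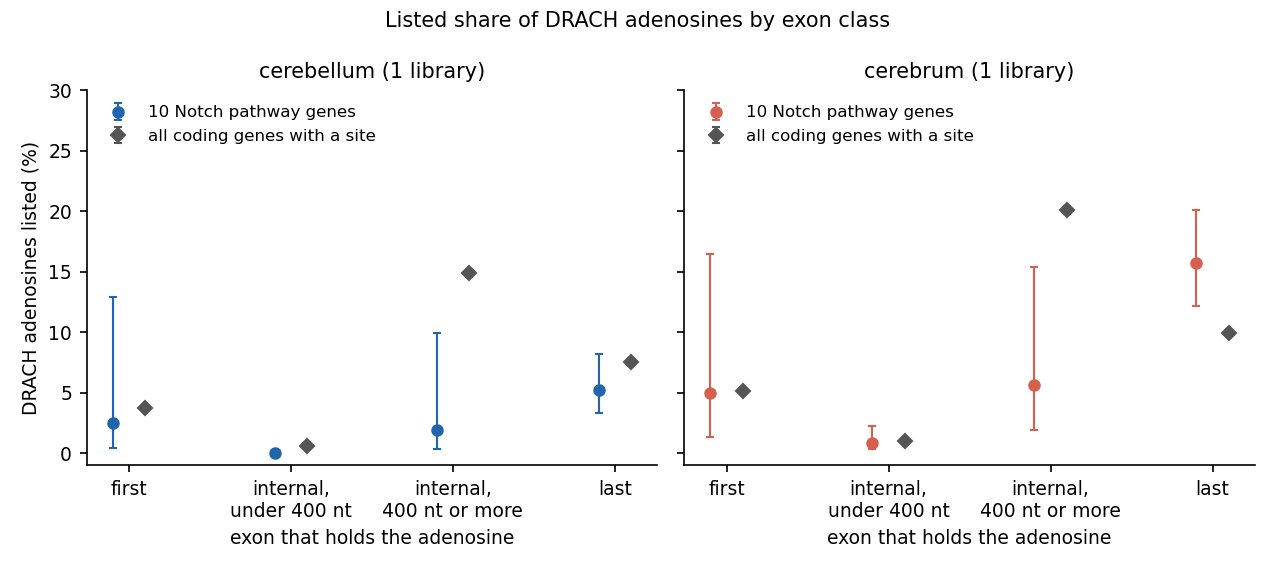
Percentage of DRACH adenosines listed (y axis) by the exon that holds them (x axis) for the 10 Notch pathway genes (circles, with 95% Wilson intervals, left out at 0) and for all coding genes with a site (diamonds), in the cerebellum (left) and the cerebrum (right). In the cerebrum the 10 genes lie at 0.883% in short internal exons and 15.7% in last exons, against 1.03% and 9.97% for all coding genes.

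Distance to the nearest exon junction gave the same order. Of the 470 DRACH adenosines under 100 nt from a junction, 0 were listed in the cerebellum and 3 in the cerebrum (0.638%, 0.217 to 1.86), compared with 1.13% and 1.74% over all coding genes. Of the 400 at 100 nt or more, 19 (4.75%, 3.06 to 7.30) and 57 (14.2%, 11.2 to 18) were listed, compared with 8.32% and 11.0% of those not that near a junction in all coding genes. Without Notch2 the cerebrum value was 30 of 293 (10.2%, 7.27 to 14.2), no longer above that of all coding genes. The 3 near a junction were codon 145 of Notch2, codon 141 of Dll1 and codon 208 of Jag1, all in exon 4 of their genes and all listed in the cerebrum alone. Within the last exons, coding DRACH adenosines were listed at 6 of 111 (5.41%, 2.50 to 11.3) in the cerebellum and 13 of 111 (11.7%, 6.97 to 19) in the cerebrum. For the 3′ UTR it was 11 of 213 (5.16%, 2.91 to 9.01) and 38 of 213 (17.8%, 13.3 to 23.5), so that the 2 parts of the last exon had overlapping intervals. All coding genes gave 6.86% and 8.97% for the 3′ UTR. Notch2 held 21 of the 38, and without it the cerebrum share was 17 of 147 (11.6%, 7.35 to 17.7), an interval that includes the value of all coding genes.

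The 3′ UTR held 13 of the 22 cerebellum sites of the 10 genes (59.1%, 38.7 to 76.7) and 48 of the 89 cerebrum sites that fell on their transcripts (53.9%, 43.6 to 63.9), close to the 56.0% and 53.5% of all coding genes. Of the DRACH sites of the 10 genes alone, it held 11 of 19 (57.9%, 36.3 to 76.9) and 38 of 60 (63.3%, 50.7 to 74.4). Of the other cerebrum sites on the transcripts it held 10 of 29 (34.5%, 19.9 to 52.7). It held 24.5% of the DRACH adenosines of the 10 genes, where all coding genes had 48.4% and 47.3%. Within 200 nt of the stop codon there were 4 of 22 sites in the cerebellum (18.2%, 7.31 to 38.5) and 12 of 89 in the cerebrum (13.5%, 7.88 to 22.1), against 20.1% and 18.7% for all coding genes. The cerebrum value rested on Notch2: without it 11 of 48 sites (22.9%, 13.3 to 36.5) were in this window, above rather than below the share of all coding genes, which lies within both intervals. With Notch2 included, all 12 cerebrum sites in the window were DRACH.

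In the 7 receptors and ligands, coding DRACH adenosines on the extracellular side of the predicted transmembrane segment were listed at 1 of 417 in the cerebellum and 7 of 417 in the cerebrum (1.68%, 0.815 to 3.42). On the intracellular side it was 5 of 170 (2.94%, 1.26 to 6.70) and 11 of 170 (6.47%, 3.65 to 11.2). Without Notch2 the cerebrum values were 4 of 330 (1.21%, 0.472 to 3.07) on the extracellular side and 7 of 124 (5.65%, 2.76 to 11.2) on the intracellular side. These intervals overlapped. In the 3 receptors, intracellular coding DRACH adenosines divide evenly between the last exon, with 63, and the exons before it, with 63. Those of the last exon were listed at 3 positions in the cerebellum and 10 in the cerebrum, and those of the earlier exons at 0 in both. The gamma-secretase cut that releases the intracellular domain corresponds to residue 1744 of Notch1, 1699 of Notch2 and 1663 of Notch3, and the listed codons nearest to it were those of the exon described below. All 5 coding DRACH sites found in both tissues were at the second base of a codon, a position that holds 425 of the 623 coding DRACH adenosines (68.2%) and 14 of the 22 coding DRACH sites of either list (63.6%).

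The tissues were compared by position. Of the cerebellum sites of the 10 genes, 16 of 22 were also in the cerebrum list (72.7%, 51.8 to 86.8), and of the cerebrum sites 16 of 97 were also in the cerebellum list (16.5%, 10.4 to 25.1). All coding genes gave 61.3% and 26%. For DRACH sites alone the shares were 14 of 19 (73.7%, 51.2 to 88.2) and 14 of 60 (23.3%, 14.4 to 35.4), against 81.5% and 46.0%. Notch2 lowered the cerebrum shares, since it held 28 of these 60 DRACH sites, only 2 of them in common. Without Notch2 the cerebrum share over all sites was 12 of 52 (23.1%, 13.7 to 36.1). This was still below the 26% of all coding genes, which lies within that interval. The cerebrum list held 3.16 times as many DRACH sites in the 10 genes as the cerebellum list, 60 against 19, where the ratio over all coding genes was 1.77. At least 2-fold more DRACH sites in the cerebrum were listed for 6 of the 9 genes with a DRACH site, as for 56.5% of coding genes, and at least 2-fold more in the cerebellum for 0 of 9, as for 4.45% of coding genes. Notch2 weighed most in the ratio, with 28 against 4, and without it the counts were 32 against 15, a ratio of 2.13. The 6 genes were Notch2, Dll1, Jag1, Hes1, Hes5 and Hes6, while Notch1 had 10 against 6. Since the depth of the libraries is unknown, these ratios compare 2 lists.

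Sites outside DRACH differed more in number between the lists, with 3 in the cerebellum and 37 in the cerebrum. This was a ratio of 12.3, compared with 3.36 over all coding genes, and without Notch2 the counts were 1 and 20. Of the 37, 15 differed from DRACH in 1 base, 14 in 2 bases and 8 in 3. In the cerebrum, 15 of the 29 that lay on the transcripts were under 100 nt from an exon junction (51.7%, 34.4 to 68.6), as were 3 of 60 DRACH sites (5%, 1.71 to 13.7). All coding genes gave 29.4% and 8.18%. Another 8 of the 37 lay in introns or retained introns, 4 in Notch2, 3 in Notch1 and 1 in Jag2. The CAAGT at codon 1529 of Notch1 was the last base of exon 25, and neither the genomic 5-mer nor the spliced one, CAACC, is DRACH.

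The non-DRACH sites in short exons of the receptors lay mostly in 1 exon at the same place in Notch1, Notch2 and Notch3. Exon 27 of Notch1 (149 nt), exon 27 of Notch2 (143 nt) and exon 26 of Notch3 (155 nt) cover the same columns of the protein alignment, 1705 to 1757, just before the transmembrane segment. They held 2, 4 and 2 sites, all listed in the cerebrum alone and none DRACH. The Notch1 exon has 0 DRACH adenosines that could have been listed, and those of Notch2 and Notch3 have 3 each. These 8 sites were among 12 non-DRACH sites in the 91 short internal exons of the 3 genes, and 8 of the 91 exons held any site. In Notch1 they were codons 1665 and 1671, in Notch2 codons 1636, 1643, 1645 and 1648, and in Notch3 codons 1586 and 1589, at 4 to 69 nt from a junction. Codon 1671 of Notch1 aligned with codon 1588 of Notch3, which lies between the 2 Notch3 sites. This exon was picked out after its values had been seen, and no reads or levels were at hand to set against it.

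Notch1 codon 1665 (chromosome 2, position 26466611, minus strand, cerebrum): tctcagctCCATTgtctacct
Notch1 codon 1671 (chromosome 2, position 26466592, minus strand, cerebrum): ctggagatCGACAaccggcaa
Notch3 codon 1586 (chromosome 17, position 32139782, minus strand, cerebrum): gtgatgctGGAGAttgacaac
Notch3 codon 1589 (chromosome 17, position 32139773, minus strand, cerebrum): gagattgaCAACCggctctgt
Notch2 codon 1636 (chromosome 3, position 98138427, plus strand, cerebrum): cagtgtgtTCAAGattcagac
Notch2 codon 1645 (chromosome 3, position 98138455, plus strand, cerebrum): tcaaaaacACAGAtgcggcag

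**Figure D5:**
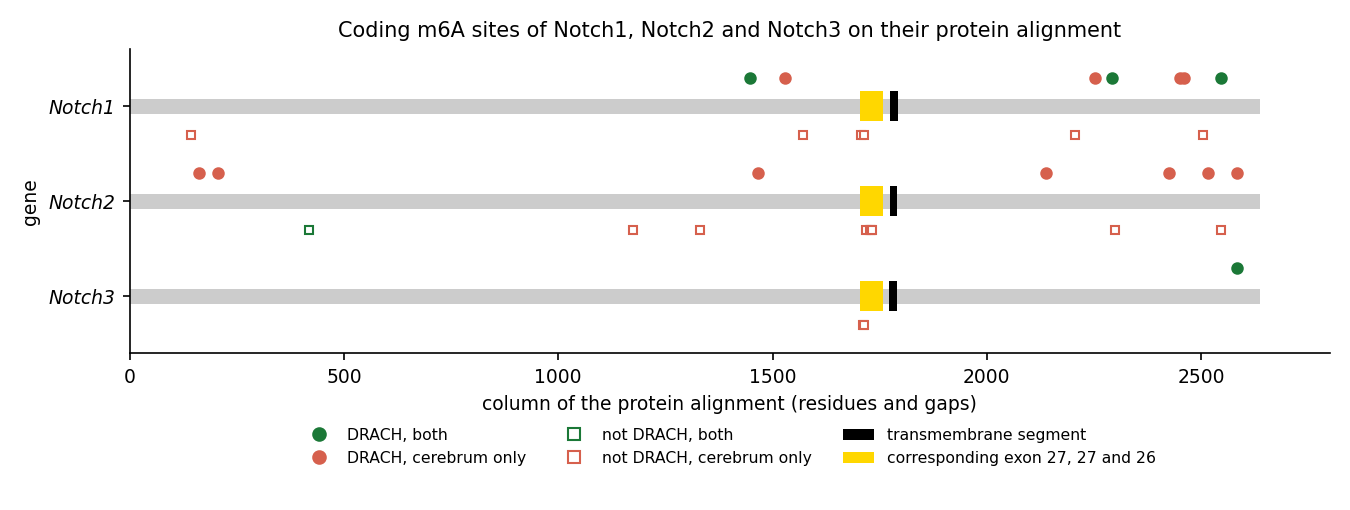
Coding m6A sites of Notch1, Notch2 and Notch3 by column of their protein alignment (x axis), with DRACH sites above each bar (circles), other sites below (squares), the transmembrane segment in black and the corresponding exon of the 3 genes in yellow. All 8 sites in the yellow exon are squares from the cerebrum, and the aligned DRACH sites of Notch2 and Notch3 stand above each other near the C terminus.

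Beyond the 10 genes, 47 other genes of the pathway were counted in the same way. In the cerebellum list 35 of them had a site, against 41 in the cerebrum list, and 31 had a position in common, where the shares over all coding genes were 41.2%, 57.4% and 34.6%. At least 2-fold more DRACH sites were listed in the cerebrum for 25 of the 37 with a DRACH site (56.5% of coding genes) and in the cerebellum for 1 (4.45% of coding genes), Psen2, a catalytic subunit of gamma-secretase. By role, the nuclear complex carried most sites, with 136 in the cerebellum and 341 in the cerebrum over 9 genes, ahead of ligand and receptor turnover with 58 and 173 over 12 genes and processing with 49 and 101 over 9 genes. The largest counts were those of Spen, a corepressor that binds Rbpj, with 42 and 84 sites, and of Ep300, a histone acetyltransferase recruited by Mastermind, with 31 and 72. Rbpj itself had 9 and 32. These counts are not adjusted for transcript length: Spen carries 271 DRACH adenosines, Ep300 200 and Rbpj 113. The further targets had 4 and 15 sites over 7 genes, led by Nrarp, a feedback inhibitor, with 3 and 5. No site was listed in either tissue for Notch4, Dll4, Lfng, Mfng, Hes3 and Hes7.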

How the data were processed

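The authors mapped GLORI reads to mm10 and to a PWK version of it, ran GLORI-tools on each alignment, merged the calls and kept those with a rate over 0.1 and more than 8 reads. The deposited files hold genomic positions with strand, 1 per site, with no fold, level or count.

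Positions were read as deposited. Bases came from GRCm38, and all 103 sites had A. GRCm38 is the C57 genome, so motifs and codons of the PWK allele were not read and can differ where the strains do. Each gene was described on its longest isoform that has both UTRs and a complete reading frame, which was also the APPRIS isoform, from GENCODE M21, not the release the study used. Distances are in spliced nt from the last base of the stop codon. Exons of 400 nt or more were called long. Transmembrane segments were the most hydrophobic 19-residue windows. Proteins were translated from GRCm38 and aligned with MAFFT 7.526 (Python 3.11.15, pysam 0.24.0, samtools 1.23.1, matplotlib 3.10.9). Placement was tested on simulated data.

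Sequences were printed for the DRACH site in both tissues nearest the stop codon and the one farthest upstream in the coding sequence, for sites at aligned codons, and, where a gene had no shared DRACH site, for its site nearest the stop codon. The transmembrane search, the corresponding Notch exon, further aligned adenosines and the added 5′ UTR, Notch2, Hes1 and Hes5 sequences were chosen after values had been seen. The members and lists were chosen with earlier results of these data known. Alternatives for sites, motif, isoform, window and genes are given in the closing section. No library was left out.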

Additional observations from a re-analysis of the deposited data

How the results depend on the processing

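With each of the 10 genes left out in turn, 147 of 150 recomputed values stayed within the 95% interval of the value for all 10 genes (for counts, within 1.5 times). The 3 exceptions all came from leaving out Notch2. Over these runs the cerebrum sites numbered 52 to 97, the listed share of exonic DRACH adenosines in the cerebrum was 4.79% to 7.91%, and the share of cerebrum sites within 200 nt of the stop codon was 10.6% to 22.9%. The ratio of cerebrum to cerebellum DRACH sites was 2.13 to 3.85.

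Of 60 values under other settings, 52 stayed within the same bounds. Restricted to sites found in both libraries, the cerebrum counts fell from 97 to 16 by construction, with 87.5% in DRACH, 81.2% in the last exon and 1.61% of DRACH adenosines listed. With RRACH (a purine in the first base) in place of DRACH, 59.1% of cerebellum sites and 45.4% of cerebrum sites held the motif. Restricted to DRACH, the last-exon share in the cerebrum was 85.0%. A window of 400 nt around the stop codon held 33.7% of cerebrum sites. The APPRIS isoform and the centre read as A could change no value, since every gene has 1 complete isoform and every site has A. Their values count among the 52. A tolerance of 1 nt for shared positions changed no value either.

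No paired analysis was possible because there was 1 library per tissue. The depth of both libraries is unknown, and its part in the length of the lists was not tested.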
